A study of Mus musculus with 14 samples.

Results

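Mouse lymph node RNA taken 120 min after ionizing radiation was set against RNA taken 30 min after it, in animals with intact Atm, to see which transcripts came early and were gone, which came late and which stayed. The comparison uses 4 of the 14 one-colour Affymetrix arrays of the series, chosen by their titles. These are the 2 arrays of Atm+/+ animals (WT) at 120 min and the 2 arrays of Atm+/+ animals at 30 min. The 3 untreated Atm+/+ arrays serve as the baseline that places each gene in a time class. Arrays of Atm-/- animals (KO), with 2 at 120 min, 2 at 30 min and 3 untreated, serve as the most similar comparison. All 14 were hybridised with total RNA labelled as lymph node. The labels give no radiation dose, age, strain background or allele construction beyond the Atm genotype, and they do not say whether replicates came from separate animals, so p-values measure only the spread between these samples.

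Ionizing radiation breaks both strands of DNA, and the Atm kinase is activated at such breaks. Among its targets are p53, which switches on cell cycle arrest and death genes, and the IKK complex, which frees NF-kB to switch on genes of inflammation, adhesion and survival. Immediate early genes such as Fos are transcribed without new protein synthesis and their short-lived mRNAs disappear quickly. NF-kB also induces its own inhibitors, among them Nfkbia and Tnfaip3, which later stop it.

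The values are deposited intensities, and differences are on the log2(value + 32) scale after quantile normalization, on which changes of dim genes come out too small. Of 12422 non-control probe sets, 8938 lay above the array's 40th percentile on at least 2 arrays and were tested with limma over all 14 arrays. A probe set was called at an adjusted p under 0.05, with p-values adjusted over all 8938. Each difference is given ± its standard error, whose median was 0.254 for 2 arrays against 2. Array medians lay between 61 and 80.4. The array labelled KO 30 min A stood apart, with correlations of 0.892 to 0.919 to the other arrays, against 0.912 to 0.964 for all pairs without it. Atm itself read 55.9 and 36.1 at 120 min and 5.5 and 34.2 at 30 min in WT, and its probe set checks nothing about the genotype labels. Salivary gland genes were bright in all these samples. The summed intensity of 9 salivary markers was 75810 and 64610 at 120 min and 66260 and 86710 at 30 min, and none of these markers passed the test.

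Between 120 and 30 min, 9 probe sets rose and 2 fell. All 9 that rose were also above untreated at 120 min and not called at 30 min, the delayed pattern. They were the adhesion molecule Icam1, the NF-kB subunit Relb, the NF-kB regulator Bcl3, the NF-kB target Tnfaip2, the chemokine Cx3cl1, the endotoxin receptor Cd14, the cell cycle inhibitor Cdkn1a, the Ras regulator Rasal1 and D17H6S56E-5. Both that fell, Fos and Ier2, had risen at 30 min, the early and transient pattern. A sustained pattern, called against untreated at 30 and at 120 min with no call between the times, was shown by 5 probe sets (0.0559%) of 4 genes, Cxcl1, Nfkbia, Ier3 and Dusp1. No probe set was called at 30 min and again in the same direction from 30 to 120 min.

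The 11 calls are 0.123% of the probe sets tested, with 0.101% called as rises and 0.0224% as falls. At an unadjusted p under 0.05 there were 503, against 446.9 from chance. Against untreated, 9 probe sets were called at 30 min (0.101%) and 46 at 120 min (0.515%), of which 42 rose (0.47%) and 4 fell (0.0448%). The count of 11 became 0 when either WT 120 min array or WT 30 min B was left out and 1 when WT 30 min A was, fits in which the lone array left is assumed to vary like the other groups. It became 3 without KO untreated A, and 4 on leaving out WT untreated C, either of the other untreated KO arrays (B, C) or either KO array at 120 min (A, B). The 46 became 17 on leaving out array A at 120 min, 13 on leaving out array B, 23 without WT untreated B and 30 without WT untreated A. With 2 arrays against 2, an exact two-sided permutation test of a single gene cannot go below p = 0.333, so the calls rest on the spread shared across arrays and probe sets.

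**Figure D1:**
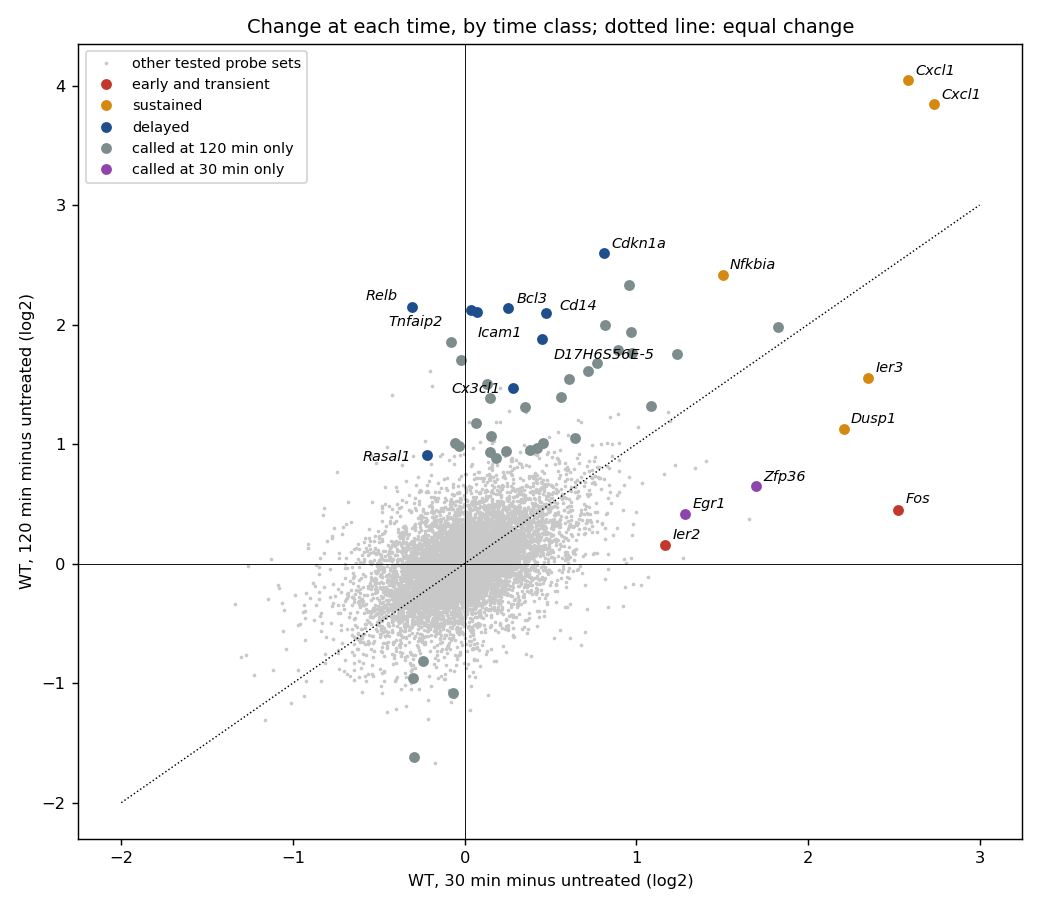
Each point is 1 of the 8938 tested probe sets, with its WT change at 30 min against untreated on the x axis and at 120 min against untreated on the y axis, both in log2; both axes share the same untreated arrays. Delayed genes lie at or below 0.81 on the x axis and between 0.91 and 2.59 on the y axis, Fos and Ier2 lie far below the dotted line of equal change, and the 2 Cxcl1 probe sets reach 3.84 and 4.05 at 120 min.

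Promoter sequence is shown for members of the 3 time classes, to set the letters upstream of early, sustained and delayed genes side by side. Each is a stretch of 100 bases within the 250 before a RefSeq transcript start on GRCm38.p6, 5′ to 3′ on the gene's strand. Capitals mark TGACG in Fos and TGACGTCA in Dusp1, which are the short and full site of CREB-type factors. They mark the NF-kB consensus (kB) in Cxcl1, Nfkbia and Ier3 and the p53 half-site in Cdkn1a. In Icam1 neither the kB consensus nor any other searched motif was marked, and all its bases are in lower case. The positions are chr12:85473790-85473889 (+) for Fos, chr17:26508566-26508665 (-) for Dusp1, chr5:90891145-90891244 (+) for Cxcl1 and chr12:55492648-55492747 (-) for Nfkbia. They are chr17:35821571-35821670 (+) for Ier3, chr17:29090879-29090978 (+) for Cdkn1a and chr9:21015840-21015939 (+) for Icam1.
Fos, early and transient: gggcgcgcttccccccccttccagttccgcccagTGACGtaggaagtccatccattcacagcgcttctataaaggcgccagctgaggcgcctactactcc
Dusp1, sustained: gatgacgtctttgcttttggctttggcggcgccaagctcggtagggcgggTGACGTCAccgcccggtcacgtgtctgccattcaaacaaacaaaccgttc
Cxcl1, sustained: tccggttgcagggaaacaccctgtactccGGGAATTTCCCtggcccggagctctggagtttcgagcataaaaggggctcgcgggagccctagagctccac
Nfkbia, sustained: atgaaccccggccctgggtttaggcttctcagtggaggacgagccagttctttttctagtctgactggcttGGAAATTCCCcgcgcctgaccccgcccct
Ier3, sustained: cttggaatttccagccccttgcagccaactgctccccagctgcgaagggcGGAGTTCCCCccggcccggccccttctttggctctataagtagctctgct
Cdkn1a, delayed: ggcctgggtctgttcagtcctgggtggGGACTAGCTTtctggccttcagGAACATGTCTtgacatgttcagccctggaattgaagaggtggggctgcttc
Icam1, delayed: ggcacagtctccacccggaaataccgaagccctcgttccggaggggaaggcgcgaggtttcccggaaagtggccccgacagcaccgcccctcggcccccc

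The search covered the 250 bases before each start on both strands. The kB consensus was found for Cxcl1, Ier3 and Nfkbia, 3 of the 4 sustained windows, and in 3.9% of all 32851 windows of the table. In Cxcl1, overlapping matches give the run of capitals. Of the 9 delayed genes 6 were in the table, with 7 windows, and the kB consensus was in 0 of them. Tnfaip3, delayed by size but not by calls, had a kB match at position -12 from its start. Fos, the early and transient gene in the table, had both a kB match and TGACG, which lies in 17.8% of all windows. Dusp1 held TGACGTCA, found in 1.55% of windows and itself containing TGACG, and Cxcl1 also held TGACG. The p53 half-site was found in 1 of the 7 delayed windows, that of Cdkn1a printed here, and in 7.13% of all windows. For Cdkn1a only a window that held the half-site was printed. The CArG box, the site of serum response factor, was in 0 of these windows and in 1.47% of all. A match is a description of these letters, and a window without one says nothing of sites elsewhere.

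The early and transient genes by calls, Fos and Ier2, are immediate early genes. Fos, a subunit of the AP-1 transcription factor, read 49.0, 46.1 and 42.1 on the untreated arrays, 416.1 and 416.0 at 30 min and 58.7 and 81.7 at 120 min. Both 30 min arrays stood above all the others, and both 120 min arrays stood above all 3 untreated ones. Fos fell by 2.08 on the log2 scale from 30 to 120 min (standard error 0.23, adjusted p = 0.00624), and 0.177 of its log2 rise at 30 min was left at 120 min. Ier2, an immediate early gene whose product acts in the nucleus, read 259.5, 220.2 and 271.6 untreated, 551.1 and 665.0 at 30 min and 289.9 and 278.4 at 120 min. It fell by 1.01 (standard error 0.17, adjusted p = 0.0433) and its 120 min arrays lay just above the untreated range.

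A further 2 genes were called at 30 min only. The growth response factor Egr1 read 141.5, 146.1 and 135.1 untreated, 367.5 and 415.4 at 30 min and 179.2 and 216.5 at 120 min. Zfp36, which binds AU-rich elements and speeds the decay of cytokine and immediate early mRNAs, read 120.1, 211.8 and 224.0 untreated, 876.7 and 487.6 at 30 min and 334.2 and 272.1 at 120 min. In both, each 120 min array lay below each 30 min array and above each untreated one. The 120 minus 30 min difference was -0.87 ± 0.17 for Egr1 (adjusted p = 0.102) and -1.05 ± 0.29 for Zfp36 (adjusted p = 0.381), so neither is called transient. The Zfp36 difference was -0.64 on leaving out array A of the 30 min pair and -1.45 on leaving out array B. By size alone, with 0.325 of the rise left for Egr1 and 0.381 for Zfp36, both went with Fos and Ier2. So did the rises of Pgs1, Sel1l2 and Hspa1l, none of them called at any time. The early and transient falls by size, Lsr and Prss30 among them, were not called either. The size rule counts a time as moved at a change of at least 1 with both arrays outside the untreated range, and calls it transient when under 0.5 of the change at 30 min is left.

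**Figure D2:**
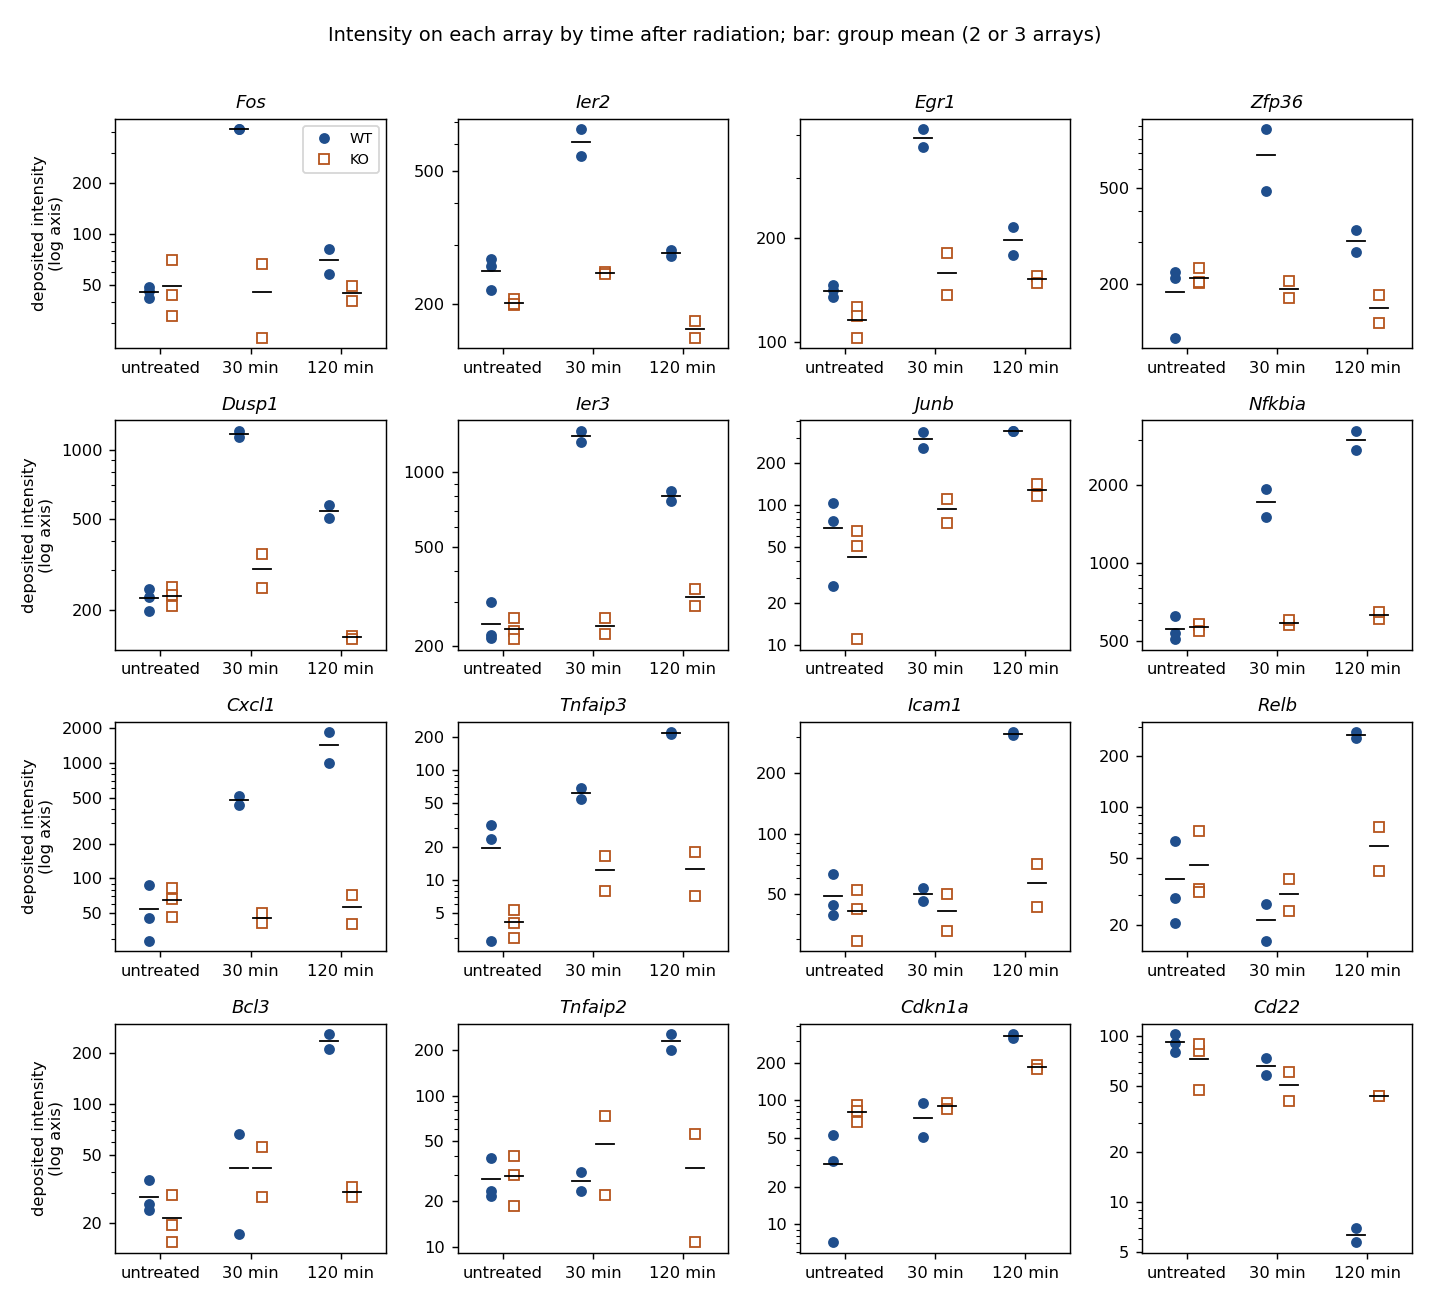
Deposited intensity (log axis) of 16 genes on each array against time, with WT as filled circles, KO as open squares and bars at group means. In WT, Fos and Ier2 peak at 30 min, Ier3 and Dusp1 are lower at 120 than at 30 min but above untreated, Nfkbia and Cxcl1 are higher at 120 than at 30 min, and Icam1, Relb, Bcl3, Tnfaip2 and Cdkn1a are high at 120 min. Fos at 30 min reads 416.1 and 416.0 on the WT arrays and 66.5 and 24.6 on the KO arrays.

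Of 31 tested immediate early genes, 2 fell and none rose between 30 and 120 min, against 0.0224% and 0.101% of all probe sets. With Fos and Ier2 counted, 9 of the 31 had both 120 min arrays below both 30 min arrays and 7 above, against 18.7% and 18.1% of all probe sets tested. The list's median difference was 0.14, beside -0.01 for all tested. Junb, another AP-1 subunit, read 26.3, 103.2 and 77.2 untreated, 256.9 and 335.8 at 30 min and 336.1 and 340.1 at 120 min by its first probe set. Its 120 minus 30 min difference was 0.16 ± 0.42 (95% interval -0.75 to 1.06, adjusted p = 0.997) and 0.08 ± 0.29 by the second, an interval too wide to say that it held level.

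The sustained genes fell into a pair still higher at 120 min and a pair already lower. Cxcl1, a chemokine that attracts neutrophils, read 31.5, 59.1 and 49.3 untreated, 391.6 and 597.6 at 30 min and 931.3 and 1274.8 at 120 min by its first probe set. By the second it read 87.7, 45.0 and 28.8 untreated, 426.9 and 517.5 at 30 min and 987.3 and 1828.6 at 120 min. By both probe sets the 3 times did not overlap. The 120 minus 30 min difference was 1.11 ± 0.31 (95% interval 0.43 to 1.79, adjusted p = 0.381) and 1.46 ± 0.35 (0.69 to 2.23, adjusted p = 0.245), where the intervals are not adjusted for the number of probe sets. With 1 array left out the second value lay between 0.95 and 1.98. The change at 30 min was 0.712 and 0.639 of that at 120 min in log2. In folds it was 6.65 and 5.99 beside 14.3 and 16.5. These folds include the offset of 32 and are smaller than those of the intensities.

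Nfkbia, the inhibitor that holds NF-kB in the cytoplasm, read 536.8, 622.0 and 505.7 untreated, 1504.3 and 1929.9 at 30 min and 3247.3 and 2735.8 at 120 min. Its 3 times did not overlap here either. The difference between 120 and 30 min was 0.91 ± 0.17 (95% interval 0.54 to 1.29, adjusted p = 0.0757), and the second probe set gave 0.79 ± 0.21 (adjusted p = 0.347). Among the alternatives tried, Nfkbia passed the test in 2, so its place between sustained and still rising depends on the setting.

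Ier3, a stress-induced regulator of survival, read 221.3, 215.4 and 299.1 untreated, 1469.3 and 1329.8 at 30 min and 840.5 and 766.9 at 120 min. Dusp1, which dephosphorylates and so inactivates MAP kinases, read 227.9, 198.2 and 246.9 untreated, 1211.2 and 1142.0 at 30 min and 504.6 and 575.3 at 120 min. Both were lower on each 120 min array than on each 30 min array, and both were still above every untreated array. The difference was -0.79 ± 0.19 for Ier3 (adjusted p = 0.245) and -1.08 ± 0.20 for Dusp1 (adjusted p = 0.0757). Of the log2 rise at 30 min, 0.662 was left for Ier3 and 0.511 for Dusp1, which puts Dusp1 close to the transient genes. Of 10 tested MAP kinase phosphatases and mRNA decay factors none passed between the times, against 0.123% of all probe sets. Dusp6 at 0.64 ± 0.23 (adjusted p = 0.692) and the antiproliferative gene Btg1 at 0.66 ± 0.19 (adjusted p = 0.395) had values opposite in sign to Dusp1 and Zfp36.

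The delayed genes were led by NF-kB components and targets. Relb, the subunit of the alternative NF-kB pathway, read 62.6, 20.5 and 28.7 untreated, 26.6 and 16 at 30 min and 277.4 and 257.4 at 120 min. Of its 30 min arrays 1 lay within and 1 below the untreated range, and its 120 min arrays stood far above both groups. It rose by 2.45 ± 0.30 (adjusted p = 0.00755) between 30 and 120 min, a 5.46-fold change, after a change of -0.31 ± 0.28 at 30 min. Bcl3, a nuclear IkB protein that works with NF-kB p50 and p52, read 36.0, 26.0 and 24.0 untreated, 67.0 and 17.3 at 30 min and 210.4 and 258.0 at 120 min. It rose by 1.89 ± 0.29 (adjusted p = 0.033), and its 30 min arrays, which lay on either side of the untreated range, moved the value between 1.41 and 2.36 when 1 array was left out.

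Of 14 NF-kB subunits and feedback regulators on the array 12 were tested, and 2 of them, Relb and Bcl3, rose, against 0.101% of all probe sets. None fell. In 11 of the 12, both 120 min arrays lay above both 30 min arrays, against 18.1% of all probe sets. The median difference was 0.65 beside -0.01 for all tested. This list, like the others, was chosen with earlier results of these data known. Its genes stand by their brightest probe sets, while the share covers every tested probe set. Tnfaip3, the A20 protein that shuts down signalling to NF-kB, read 23.6, 2.8 and 31.7 untreated, 69.0 and 54.7 at 30 min and 210.7 and 220.2 at 120 min. Its 3 times did not overlap and its difference was 1.37 ± 0.26 (adjusted p = 0.0757). Nfkb2, the partner of Relb, had a difference of 1.04 ± 0.31 (adjusted p = 0.425), with 179.4 and 169.2 at 120 min and 84.3 and 52.5 at 30 min. Rela, the main activating subunit, read 1491.0 and 1231.2 at 120 min and 893.7 and 685.2 at 30 min, a difference of 0.74 ± 0.26 (adjusted p = 0.657).

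Of 39 listed NF-kB targets on the array, most of them secreted or on the cell surface, 22 were tested. Among the 22, 4 rose, against 0.101% of all probe sets, and none fell. Icam1, which holds leukocytes to endothelium, read 39.3, 63.2 and 44.1 untreated, 53.5 and 46.4 at 30 min and 317.5 and 308.8 at 120 min. Its 30 min arrays lay within the untreated range and the 120 min arrays far above it. Icam1 rose by 2.03 ± 0.24 (adjusted p = 0.00684), a 4.08-fold change, and its change at 30 min was 0.0353 of that at 120 min. Tnfaip2, a cytokine-induced gene, read 38.6, 23.5 and 21.7 untreated, 31.2 and 23.4 at 30 min and 255.3 and 200.2 at 120 min. It rose by 2.08 ± 0.32 (adjusted p = 0.033) with its 30 min arrays again within the untreated range.

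Cd14, which hands endotoxin to its signalling receptor, read 174.0, 366.2 and 258.4 untreated, 406.0 and 329.0 at 30 min and 1208.9 and 1232.2 at 120 min. It rose by 1.62 ± 0.26 (adjusted p = 0.033), while 1 of its 30 min arrays lay above the untreated range. Cx3cl1, a chemokine that is tethered to the membrane, read 158.1, 205.0 and 191.2 untreated, 227.6 and 229.3 at 30 min and 699.1 and 483.3 at 120 min. It rose by 1.19 ± 0.19 (adjusted p = 0.033), but its dimmer second probe set, at 92.0 and 131.2 at 120 min and 70.2 and 57.3 at 30 min, did not pass. Csf1, the growth factor of macrophages, read 187.9, 70.9 and 171.8 untreated, 139.9 and 118.7 at 30 min and 541.2 and 506.9 at 120 min. Its 120 min arrays stood apart from all others, yet the difference of 1.73 ± 0.35 did not pass (adjusted p = 0.121). The median over the list was 0.12, beside -0.01 for all tested, with 9 members above and 3 below without overlap, against 18.1% and 18.7% of all probe sets.

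None of 9 tested NF-kB survival genes passed, against 0.123% of all probe sets. Birc3, an inhibitor of cell death signalling, read 45.2, 30.0 and 32.8 untreated, 68.5 and 105.4 at 30 min and 222.2 and 250.6 at 120 min. Its 3 times did not overlap and the difference was 1.17 ± 0.29 (adjusted p = 0.258). The list's median was 0.05, and Sod2, the mitochondrial superoxide dismutase, stood at 0.18 ± 0.20 (adjusted p = 0.997).

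**Figure D3:**
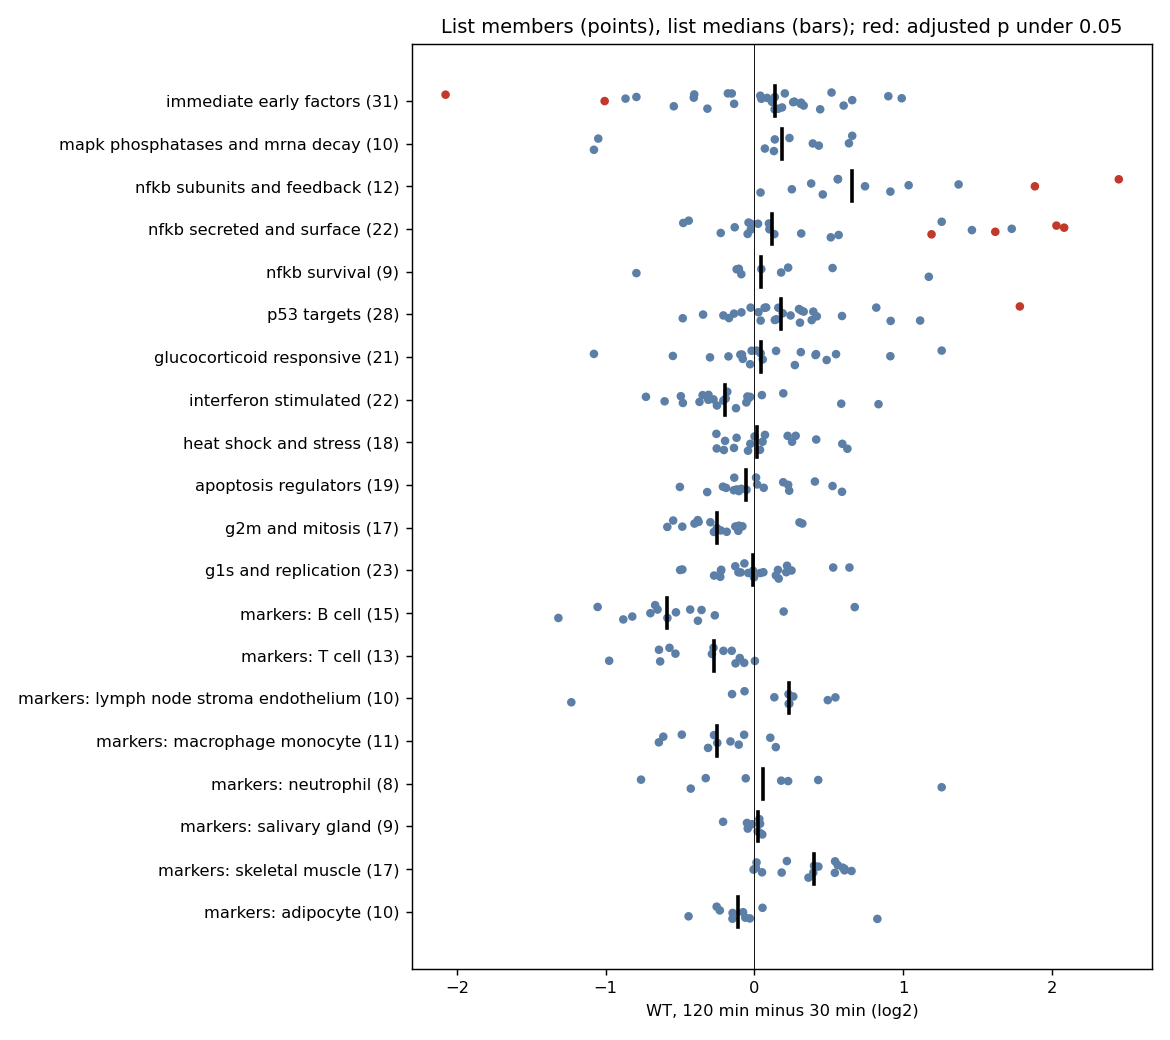
Each point is a gene's WT difference of 120 minus 30 min in log2, grouped by list with the number tested in brackets; vertical bars are list medians and red points passed at an adjusted p under 0.05. The NF-kB subunit and feedback list has the highest median of the gene lists, 0.65, and the B cell marker list the lowest of all, -0.59.

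Of the 28 tested p53 targets, Cdkn1a rose, none fell and 27 did not pass. Over all probe sets 0.101% rose and 0.0224% fell. Cdkn1a, which halts the cell cycle by inhibiting cyclin-dependent kinases, read 52.0, 32.3 and 7.1 untreated, 94.2 and 50.1 at 30 min and 342.9 and 318.1 at 120 min. It rose by 1.78 ± 0.28 (adjusted p = 0.033), and its change at 30 min was 0.312 of that at 120 min. Its second probe set read 136.0 and 175.4 at 120 min and 46.6 and 45.3 at 30 min, a difference of 1.25 ± 0.31 that did not pass (adjusted p = 0.258). Both arrays at 120 min were above both at 30 min in 11 of the 28 targets and below them in 2, against 18.1% and 18.7% of all probe sets, and the median was 0.175.

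Phlda3, a p53-induced inhibitor of Akt, read 229.7, 115.6 and 197.3 untreated, 191.5 and 171.5 at 30 min and 457.4 and 428.7 at 120 min. Its 30 min arrays lay within the untreated range, and its difference was 1.11 ± 0.25 (adjusted p = 0.17). Mdm2, the ubiquitin ligase that limits p53, read 82.2, 207.4 and 140.1 untreated, 227.4 and 97.5 at 30 min and 325.3 and 323.9 at 120 min. With 30 min arrays this far apart its difference was 0.92 ± 0.38 (adjusted p = 0.824), and 0.43 to 1.40 with 1 array left out. Sesn1 had the lowest value of the list, -0.48 ± 0.24 (adjusted p = 0.92).

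The delayed calls outside these pathways were D17H6S56E-5 and Rasal1. D17H6S56E-5 read 215.9, 170.8 and 189.3 untreated, 243.5 and 301.7 at 30 min and 798.0 and 813.7 at 120 min, and it rose by 1.43 ± 0.23 (adjusted p = 0.033). Rasal1, a calcium-responsive protein that inactivates Ras, read 155.4, 185.9 and 175.0 untreated, 143.9 and 138.9 at 30 min and 312.0 and 399.5 at 120 min. It rose by 1.12 ± 0.18 (adjusted p = 0.033) and was the only one of the 9 whose change from untreated at 120 min, 0.91 ± 0.17, was under 1.

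A much larger group was called at 120 min against untreated alone, 28 rises and 4 falls (0.358% of probe sets), and could not be placed by calls. By size, 17 of the 28 rises went with the delayed genes and 3 with the sustained ones, and in 27 of the 28 both 120 min arrays lay above both 30 min arrays. The choice of these by their high 120 min values favours that order. Sprr1a, a precursor of the cornified envelope of epithelia, read 36.5, 19.1 and 9.8 untreated, 26.9 and 8.0 at 30 min and 187.0 and 127.7 at 120 min. Its difference of 1.93 ± 0.34 missed the threshold (adjusted p = 0.057). Sox4, a transcription factor, read 79.5, 68.1 and 66.9 untreated, 176.3 and 157.8 at 30 min and 374.1 and 364.8 at 120 min. Its change at 30 min was 0.498 of that at 120 min, just inside the limit of 0.5 for the delayed class. Irf1, a transcription factor of the interferon response, had 594.5 and 609.8 at 120 min and 329.3 and 305.0 at 30 min, a difference of 0.83 ± 0.21 (adjusted p = 0.291).

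Among the genes sustained by size but not by calls were Cxcl2, a second neutrophil chemokine, and Bdkrb1, the inducible kinin receptor. The same class held both Junb probe sets, Igfals and Btg2 as rises, and Ido1 and Tug1 as falls. Cxcl2 read 22.4, 5.5 and 1.9 untreated, 64 and 56.9 at 30 min and 71.8 and 127.9 at 120 min. Bdkrb1 read 61.6, 105.7 and 135.1 untreated, 226.2 and 247.0 at 30 min and 288.5 and 288.9 at 120 min. Both stood above untreated on all 4 irradiated arrays, and the differences between the times were 0.51 ± 0.34 and 0.24 ± 0.26 (adjusted p = 0.981 and 0.997).

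Over all probe sets the size rule put 41 rises and 16 falls in the delayed class (0.459% and 0.179%), 7 and 7 in the early and transient class (0.0783% each) and 11 and 2 in the sustained class (0.123% and 0.0224%). The delayed rises numbered 69 on leaving out array A at 120 min and 64 on leaving out array B. The early and transient rises numbered 40 without WT 30 min A, 37 without WT 30 min B and 17 without WT untreated B, and the sustained rises 21 without WT untreated B and 18 without WT untreated C.

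No fall from 30 to 120 min outside Fos and Ier2 was called, and genes of B cells and other leukocytes were among those with low 120 min values. Cd22, a B cell inhibitory receptor, read 103.0, 80.6 and 91.4 untreated, 57.9 and 74.2 at 30 min and 7.0 and 5.7 at 120 min. Both 120 min arrays lay far below all others, and the difference was -1.32 ± 0.25 (adjusted p = 0.0757). Cd79b, a subunit of the B cell receptor, read 168.0 and 127.5 at 120 min and 299.0 and 400.1 at 30 min (difference -1.05 ± 0.30, adjusted p = 0.381). Ptprc, the pan-leukocyte phosphatase CD45, read 70.7 and 61.7 at 120 min and 141.8 and 166.1 at 30 min (difference -0.88 ± 0.20, adjusted p = 0.178). A second Ptprc probe set had a difference of 0.40 ± 0.46. Cd52, a lymphocyte surface glycoprotein, read 424.1 and 279.7 at 120 min and 732.6 and 792.6 at 30 min (difference -1.08 ± 0.28, adjusted p = 0.291). Atp5mpl, on none of the marker lists, read 670.2 and 425.8 at 120 min and 1278.3 and 969.4 at 30 min (difference -1.02 ± 0.22, adjusted p = 0.152). Cd22, Atp5mpl and the B cell marker H2-Ob were among the falls called at 120 min against untreated.

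Of 15 tested B cell markers none passed, against 0.123% of all probe sets. Of the 15, 13 had differences below 0, and in 10 both 120 min arrays lay below both 30 min arrays, against 18.7% of all probe sets. Their median was -0.59. Their summed intensity was 5048 and 4972 at 120 min and 6660 and 8459 at 30 min, and none was listed at 0. Of 13 T cell markers 12 were below 0 with a median of -0.28, where 4597 of all 8938 probe sets were below 0. Their sums were 832.6 and 769.5 at 120 min and 1057 and 1281 at 30 min. Cd2 had the lowest value, -0.98 ± 0.43 (adjusted p = 0.863). It read 20.9 and 16.4 at 120 min, under the 40th percentiles of those arrays (38.3 and 47.1). Of 11 macrophage markers 9 were below 0, with a median of -0.25. In bulk RNA, fewer cells of a type and less RNA per cell cannot be told apart. Glycam1, a ligand made by high endothelial venules, read 213.3 and 151.4 at 120 min and 339.7 and 652.7 at 30 min (difference -1.23 ± 0.34, adjusted p = 0.381, and -1.66 to -0.80 with 1 array left out), but the 10 stromal and endothelial markers had a median of 0.23.

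Other measures were read on the same arrays. Skeletal muscle markers had a median of 0.40, with 6 of 17 higher and none lower without overlap, against 18.1% and 18.7% of all probe sets, and sums of 4181 and 4244 at 120 min and 4053 and 2241 at 30 min. Gapdh probe sets, whose 3' to 5' ratio tracks RNA integrity, gave ratios of 0.891 and 0.723 at 120 min and 0.851 and 0.890 at 30 min. What part cell makeup, muscle and RNA quality had in the differences above was not tested.

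**Figure D4:**
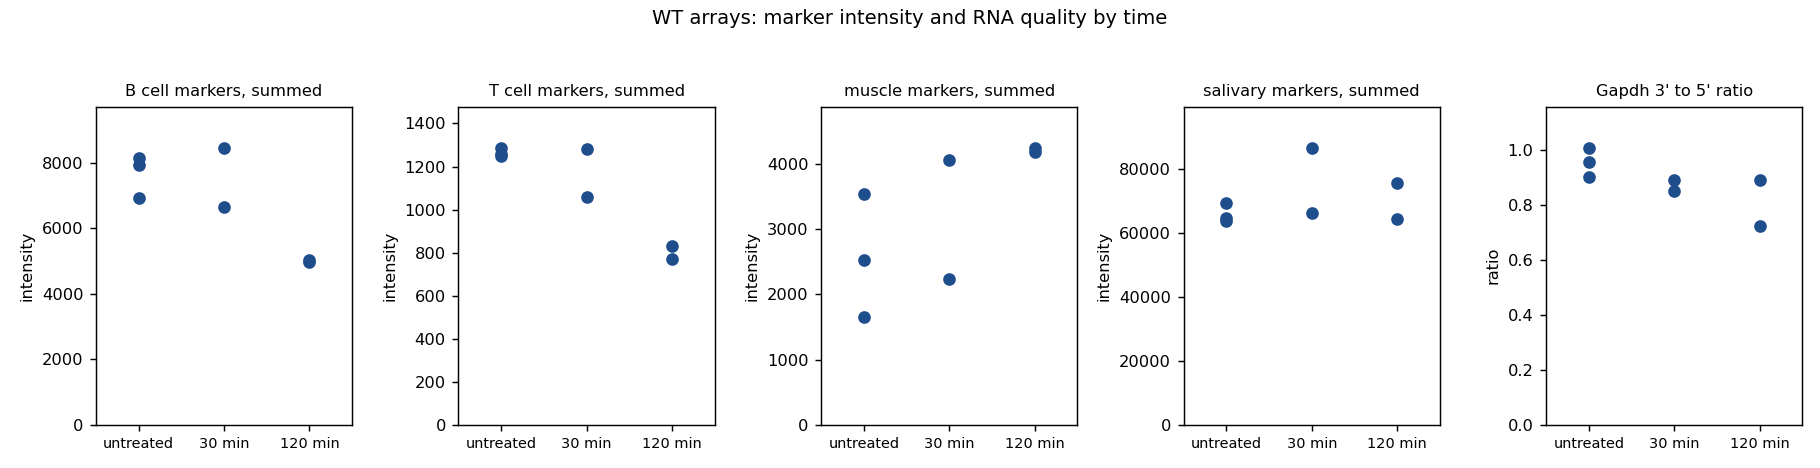
Summed deposited intensity of 4 marker lists and the 3' to 5' ratio of Gapdh on each WT array by time, with axes from 0. The B cell sums are 5048 and 4972 on the 120 min arrays, below all 5 other WT arrays, while the salivary and Gapdh values of the 2 irradiated times overlap.

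The remaining lists had no call between the times, against 0.123% of all probe sets. Of 22 interferon-stimulated genes, 18 were below 0 (median -0.20), where 4597 of all 8938 probe sets were. Psmb9, an immunoproteasome subunit, was at -0.73 ± 0.18 (adjusted p = 0.245) and Ifit1 at -0.60 ± 0.20 (adjusted p = 0.59). The largest difference of the list went the other way, Irf1 at 0.83 ± 0.21, and Gbp3 was at 0.58 ± 0.23. Of 17 G2/M and mitosis genes, 15 were below 0 (median -0.25), with 7 lower and 1 higher without overlap, against 18.7% and 18.1% of all probe sets. Ube2c, a ubiquitin-conjugating enzyme of mitotic exit, read 42.7 and 40.2 at 120 min and 85.7 and 77.0 at 30 min, a difference of -0.59 ± 0.18 (adjusted p = 0.504). Medians were -0.01 for 23 G1/S and replication genes, -0.05 for 19 apoptosis regulators, 0.02 for 18 heat shock and stress genes and 0.04 for 21 glucocorticoid-responsive genes, which count Dusp1, Nfkbia and Lcn2 among them. The markers of neutrophils (0.06), salivary gland (0.02) and adipocytes (-0.11) had medians near 0. The neutrophil and NF-kB lists share Lcn2, a secreted iron-binding protein, which read 375.7 and 467.9 at 120 min and 192.6 and 118.5 at 30 min. Its difference was 1.26 ± 0.36 (adjusted p = 0.399) and that of its second probe set -0.27 ± 0.33.

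The same pair of times was tested in KO, where no probe set was called (0%, with 640 at an unadjusted p under 0.05 against 446.9 from chance). That count was also 0 without KO 30 min A, but 44 without KO 120 min B, 110 without KO 30 min B and 1 without either WT 120 min array. Median absolute differences over all probe sets were 0.179 in WT and 0.191 in KO. None of the WT genes in a class by size was in the same class and direction in KO, 0 of 41 delayed rises, 0 of 11 sustained rises and 0 of 7 early and transient rises. The KO counts for those classes of rises were 10, 5 and 21 (0.112%, 0.0559% and 0.235% of probe sets), beside 41, 11 and 7 in WT (0.459%, 0.123% and 0.0783%). For falls in the same order of classes the KO counts were 10, 4 and 16 (0.112%, 0.0448% and 0.179%), beside 16, 2 and 7 in WT. With KO shares this small, 0 of 41, 0 of 11 and 0 of 7 rises lie near the share of all probe sets. In KO 38 of the 41 delayed rises were in no class, some of them just under the cutoff of 1. At 120 min in KO, Cdkn1a (first probe set) had changed by 0.99, Mdm2 by 0.94 and Phlda3 by 0.87. Pcgf2, delayed in WT, was sustained in KO, with changes of 1.27 and 1.37.

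Whether the difference between times itself differed between genotypes was tested for every probe set, and 1 passed (0.0112%), Rasal1. In KO Rasal1 ran the other way, with 135.0 and 139.1 at 120 min and 280.8 and 265.5 at 30 min, and the WT minus KO difference was 1.97 ± 0.26 (adjusted p = 0.0373). The call was lost without KO 30 min A (1.93, adjusted p = 0.073), and over the fits that left out 1 array it held in 2 of 14. The count of 1 became 49 without KO 120 min B, 3 without KO untreated B, and 0 in the other fits that left out 1 array.

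Fos read 49.6 and 40.3 at 120 min and 66.5 and 24.6 at 30 min in KO, with no separation of the times. Its WT minus KO difference was -2.13 ± 0.32 (95% interval -2.83 to -1.43, adjusted p = 0.0898). For the delayed NF-kB genes the WT minus KO differences were 2.37 ± 0.45 for Tnfaip2, 2.12 ± 0.42 for Bcl3, 1.93 ± 0.43 for Relb, 1.76 ± 0.34 for Icam1, 1.60 ± 0.36 for Cd14 and 1.46 ± 0.27 for Cx3cl1, with adjusted p between 0.201 and 0.248. The second Cx3cl1 probe set gave -0.03 ± 0.43. None of these passed after adjustment over all probe sets. The KO values of Icam1 were 71.0 and 43.2 at 120 min and 32.8 and 50.3 at 30 min. For Nfkbia the times read 606.7 and 647.2 at 120 min and 575.4 and 598.6 at 30 min in KO, and the WT minus KO difference was 0.84 ± 0.24 (adjusted p = 0.403).

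Cdkn1a was the delayed gene with the highest KO difference, 0.88 ± 0.28 (adjusted p = 0.541), from 194.1 and 177.5 at 120 min and 95 and 84.3 at 30 min. Its WT minus KO difference was 0.91 ± 0.40 (95% interval 0.03 to 1.78, adjusted p = 0.652). Phlda3 and Mdm2 had KO differences of 0.63 ± 0.25 and 0.78 ± 0.38, and WT minus KO intervals from -0.28 to 1.25 and from -1.02 to 1.29 that include 0. Dusp1 read 154.2 and 148.8 at 120 min and 351.8 and 248.7 at 30 min in KO. Its difference there, -0.85 ± 0.20, stood beside -1.08 ± 0.20 in WT, and the WT minus KO interval ran from -0.85 to 0.39. Medians of the NF-kB subunit and feedback list were 0.65 in WT and 0.03 in KO, and those of the B cell markers -0.59 in WT and 0.10 in KO, with muscle markers at 0.40 in WT and -0.60 in KO.

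**Figure D5:**
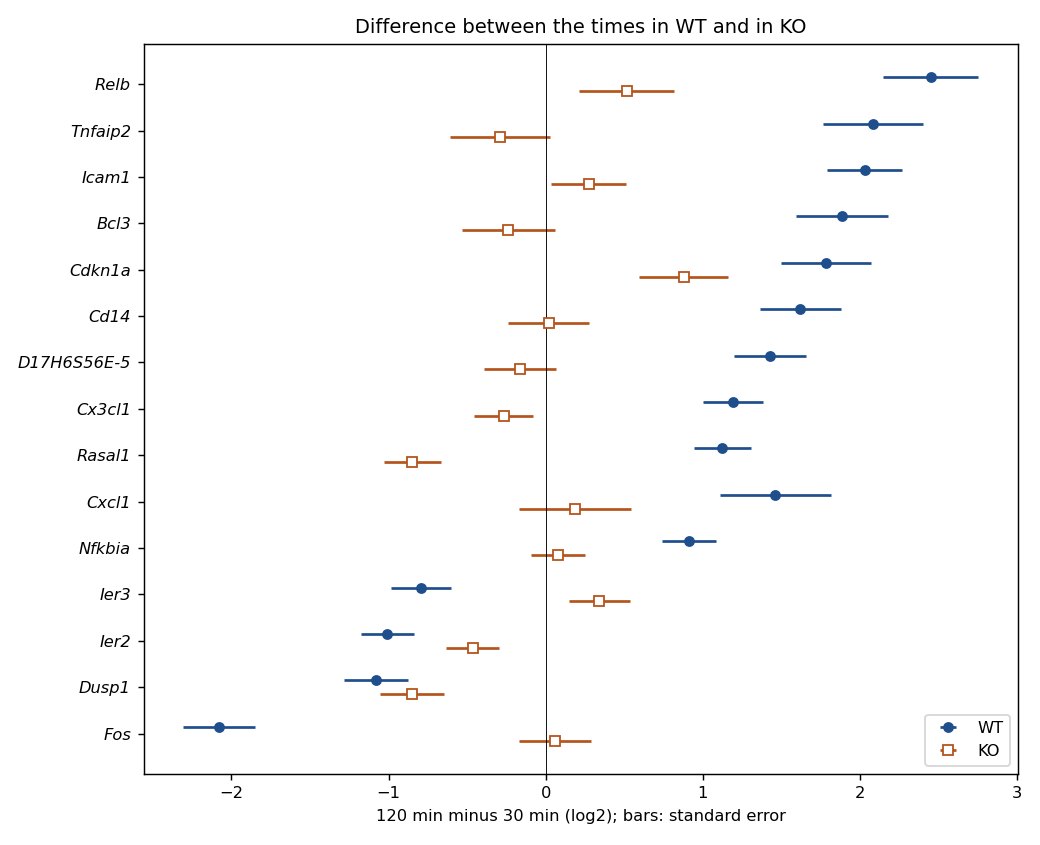
Difference of 120 minus 30 min in log2 for 15 genes, with WT as filled circles, KO as open squares and bars of 1 standard error. Relb is at 2.45 in WT and 0.52 in KO, Fos at -2.08 in WT and 0.06 in KO, Dusp1 at -1.08 in WT and -0.85 in KO, and Rasal1 at 1.12 in WT and -0.85 in KO.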

How the data were processed

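Affymetrix arrays of lymph node RNA from irradiated and untreated WT and KO mice were analysed from one table. It holds an intensity per probe set and array, deposited by the authors on a linear scale. No software, settings or genome build for them were given in the sources used here. Trimmed array means of 150 to 150.3 show, from the values alone, a global scaling by the authors. Intensities were taken as log2(value + 32), on which the array medians spanned 0.273, then quantile normalized over all 12488 probe sets, and the 66 controls were dropped. A model of 6 group means was fitted with limma 3.58.1 in R 4.3.3 (8 residual and 4.56 prior degrees of freedom), with contrasts of 120 minus 30 min in WT and KO, both WT times minus untreated, and WT minus KO. The fit was checked on simulated data. The precision is limited by the number of arrays. Gene names came from the platform annotation, with 7960 tested probe sets naming 1 gene, 303 several and 675 none; only those with 1 gene are named. A gene in a list stands by its brightest probe set. The members and lists were chosen with earlier results of these data known. Genes were named when called, when placed in a class, when among the 10 smallest p-values per direction, or when among the members of a list with the largest difference. The KO classes by size were added after seeing the data. Replicate letters were checked for pairing: the correlations of same-lettered deviations lay between -0.121 and 0.0844. Where a group holds only arrays A and B, their deviations mirror each other. The check therefore cannot decide whether the letters pair the samples. Promoter sequences are from RefSeq, GRCm38.p6.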

Additional observations from a re-analysis of the deposited data

Results flagged for a closer look

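Rasal1 is listed because its difference between 120 and 30 min itself differed between the genotypes by a test of that difference. WT minus KO was 1.97 on the log2 scale. Both 120 min arrays lay above both 30 min arrays in WT and below them in KO. It is measured by 1 probe set, and the call held in 2 of the 14 fits that left out 1 array.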

How the results depend on the processing

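The count of 11 probe sets called between 120 and 30 min in WT was 3 with an offset of 16, 21 with an offset of 64, 5 with only the 7 WT arrays, 4 with only the groups compared, 23 with an intensity trend in eBayes, and 0 to 14 when 1 array was left out. With the replicate letter as a block it was 4, and whether the letters pair the samples is not known. The block also gave 25 for 120 min against untreated, 0 for WT minus KO, and 1 early and transient and 3 delayed probe sets. The 9 calls at 30 min against untreated were 5 with only the groups compared and 6 to 10 with 1 array left out. The 46 at 120 min against untreated were 26 with only the WT arrays, 25 with only the groups compared and 13 to 44 with 1 array left out. The 0 in KO were 0 to 110 with 1 array left out. The 1 for WT minus KO was 0 with an offset of 16 and with only the groups compared, 2 with an offset of 64 and with a floor of 32, and 0 to 49 with 1 array left out.

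Among the classes by calls, the 2 early and transient probe sets were 1 after centring, with an offset of 16, with a floor and with only the WT arrays, and 0 to 3 with 1 array left out. The 5 sustained were 3 with an offset of 64 and with a trend, and 4 to 5 with 1 array left out. The 9 delayed were 2 with an offset of 16, 16 with an offset of 64, 4 with only the WT arrays, 17 with a trend and 0 to 10 with 1 array left out. By size, the 7 early and transient rises were 21 with an offset of 16, 18 with a floor and 7 to 40 with 1 array left out. The 11 sustained rises were 21 with an offset of 16, 22 with a floor and 11 to 21 with 1 array left out. The 41 delayed rises were 64 with an offset of 16, 27 with an offset of 64, 74 with a floor and 34 to 69 with 1 array left out. Fewer samples enter the fits with WT arrays or compared groups only; for the other settings the cause was not tested.

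Of 106 named values, 96 kept their sign under every alternative run. Igfals, at -0.0085, was 0.0071 without quantile normalization and 0.0403 after centring, and -0.0987 to 0.0825 with 1 array left out. Prol1, at 0.0524, was -0.0642 and -0.0310 under those settings and -0.0404 to 0.1419 with 1 array left out. Leaving out 1 array also changed the sign of Acta1 (-0.1132 to 1.3233), Bcl2 (-0.3288 to 0.0903), Dnajb9 (-0.2445 to 1.0687), Ido1 (-0.4110 to 0.1215), Junb (-0.0166 to 0.3319 and -0.2291 to 0.3969), Tnni2 (-0.0012 to 1.2108) and Tug1 (-0.3720 to 0.0536). The calls of Fos, Icam1 and Relb were lost only without 1 of the 4 arrays compared, and those of the other 8 under further settings. With 2 arrays a group, a change near the median standard error was not detectable.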
